A study of Saccharomyces cerevisiae BY4741 with 66 samples.

Results

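Selective ribosome profiling sets the footprints of ribosomes that come down with a tagged protein (the IP translatome) against the footprints of all translating ribosomes (the total translatome). In PFK1-GFP yeast the tagged protein is PFK1, a subunit of phosphofructokinase, and the IP against the total asks which nascent chains PFK1 holds while they are still being made. The comparison rests on the 4 libraries titled PFK1-GFP, 2 IPs and 2 totals, out of 66 libraries in the series and 50 with values per gene; pair 1 and pair 2 are the IP and the total of the same replicate number. Cells were Saccharomyces cerevisiae BY4741, a MATa laboratory strain, grown in rich medium (YPD) at 30 °C and 150 rpm. They were filtered, frozen and milled, the ribosomes of the totals were pelleted through sucrose, and the IPs were taken with GFP antibody on beads.

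The strains tested against PFK1-GFP carried a GFP tag on another protein and no other change that the labels give. PFK2-GFP, in YPD, has the tag on the other subunit of the same enzyme. FAS1-GFP and FAS2-GFP (fatty acid synthase) and GUS1-GFP, MES1-GFP and ARC1-GFP (the tRNA synthetase complex) grew in YPD, and TRP2-GFP (anthranilate synthase) in medium without tryptophan. These 6 strains have 2 pairs each and serve as the strains tagged in other complexes. TRP3-GFP, CPA1-GFP, SUI2-GFP, SUI3-GFP and GCD11-GFP have 1 pair each, TRP3-GFP in medium without tryptophan and CPA1-GFP in medium without arginine. FAS1dMPT-GFP and FAS1-GFP FAS2dMPT, which carry MPT deletions and grew with added fatty acids, were not tested against PFK1-GFP. They entered the estimate of the spread, the ranges given for replicated strains with no phosphofructokinase tag, and the figure of PFK2 in each pair. Nothing in the labels ties a strain to 1 clone or a replicate to a culture of its own. The p-values therefore measure the spread between these libraries, which may be technical.

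Phosphofructokinase turns fructose 6-phosphate into fructose 1,6-bisphosphate, the step that commits sugar to glycolysis. The yeast enzyme is a hetero-octamer of alpha subunits, encoded by PFK1, and beta subunits, encoded by PFK2, and both kinds have a catalytic and a regulatory part. ATP inhibits it, and AMP and fructose 2,6-bisphosphate activate it. A nascent PFK2 chain that is bound by finished PFK1-GFP would bring its ribosome and its mRNA footprints into the IP.

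The 4 libraries differed in depth and in how far each IP stood from its total. The smallest step between values implied 4.88 and 5.63 M reads in IP 1 and IP 2, against 1.75 and 5.04 M in total 1 and total 2. Of these reads 46.9% and 89.1% lay over listed features in the IPs, against 77.0% and 94.8% in the totals. IP 2 was close to total 2 (Pearson r = 0.98 across 5135 features, which are not independent replicates), and IP 1 was farther from total 1 (r = 0.90). The IPs had r = 0.897 with each other, and the totals r = 0.936. IP 2 was thus nearer to both totals (r = 0.980 and 0.945) than to IP 1. Among all 50 libraries, each PFK1-GFP library was closest to a library of another strain, as IP 2 to GUS1-GFP IP 2 (r = 0.990). MATa-specific genes, such as the pheromone receptor STE2 (243 and 212 scaled RPM in the IPs, 174 and 217 in the totals), were present in all 4 libraries. RPM counts reads of a feature at a fixed library size, and scaled RPM carries trimmed-mean factors between libraries as well. Total 1 went against the MATa label in part: the alpha-factor gene MF(ALPHA)1, a defining MATalpha gene, stood at 101 scaled RPM there, against 0.253 in total 2 and 1.26 and 0 in the IPs, and MF(ALPHA)2 at 14.7 in total 1 and 0 in the other 3. The third MATalpha gene listed, the a-factor receptor STE3, was at 6.28 and 1.87 in the IPs, against 6.94 and 0.51 in the totals, and so did not set total 1 apart from IP 1. Whether that is a few cells with much of this RNA or many with little cannot be told apart, and its part in the results was not tested. Among all 50 libraries, 13 libraries of other strains held more reads of MATalpha-specific than of MATa-specific genes, and results are given without total 1 and without such strains where these change a call.

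PFK2, the partner subunit (YMR205C, chromosome XIII, 671887 to 674766, minus strand, a reading frame of 2880 nucleotides), was more frequent in both IPs than in both totals. It had 8872 scaled RPM in IP 1 and 4469 in IP 2, against 2342 in total 1 and 2641 in total 2. The lower IP lies well above the higher total, as for 20.6% of all features tested, but the IPs differed from each other more than the totals did. As a share of all reads over nuclear features PFK2 took 0.937% and 0.429% in the IPs, against 0.226% and 0.218% in the totals. The ratio of IP to total was 3.79-fold in pair 1 and 1.69-fold in pair 2. The log2 difference was 1.34 ± 0.25 (SE, 2 libraries against 2; 95% interval 0.82 to 1.86; 1.92 and 0.76 in the pairs). This SE is pooled over the 40 libraries of the 10 replicated strains. Between the PFK1-GFP replicates the log2 values of features differed with an SD of 0.95 in the IPs and 0.78 in the totals. Over the 10 strains that SD ran from 0.40 to 1.02 for IPs and from 0.16 to 1.04 for totals. PFK2 had the smallest unadjusted p of the 5135 features tested, 1.76e-05 by limma, and was not called after Benjamini-Hochberg adjustment (limma adjusted p = 0.0903). In a fit of the 4 PFK1-GFP libraries alone PFK2 had limma adjusted p = 0.772. Here called means an adjusted p below 0.05 and a log2 difference of at least 1 in either direction, and all log2 differences are on the log2(scaled RPM + 1) scale, which understates the change of low features. Without IP 2 the difference was 1.83 and was called by limma (adjusted p = 0.000386), and without IP 1 it was 0.85.

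PFK1, the tagged subunit itself (YGR240C, chromosome VII, 970771 to 973734, minus strand, 2964 nucleotides), did not separate the fractions. It had 5937 and 4188 scaled RPM in the IPs, against 3616 and 4458 in the totals, so the fractions overlapped and the pairs went opposite ways, 0.72 and -0.09 on the log2 scale. The fitted difference was 0.31 ± 0.29 (SE, 2 libraries against 2; limma adjusted p = 0.569; 95% interval -0.29 to 0.91). Per kilobase of reading frame, where levels of different genes can be set side by side, PFK2 stood above PFK1 in the IPs and below it in the totals. The ratio of the level of PFK2 to that of PFK1, per kilobase, was 1.54 and 1.10 in the IPs, against 0.666 and 0.610 in the totals. In 16 IPs of the 8 replicated strains with no phosphofructokinase tag it was 0.683 to 1.11 (median 0.943), a range that holds IP 2 and not IP 1.

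**Figure D1:**
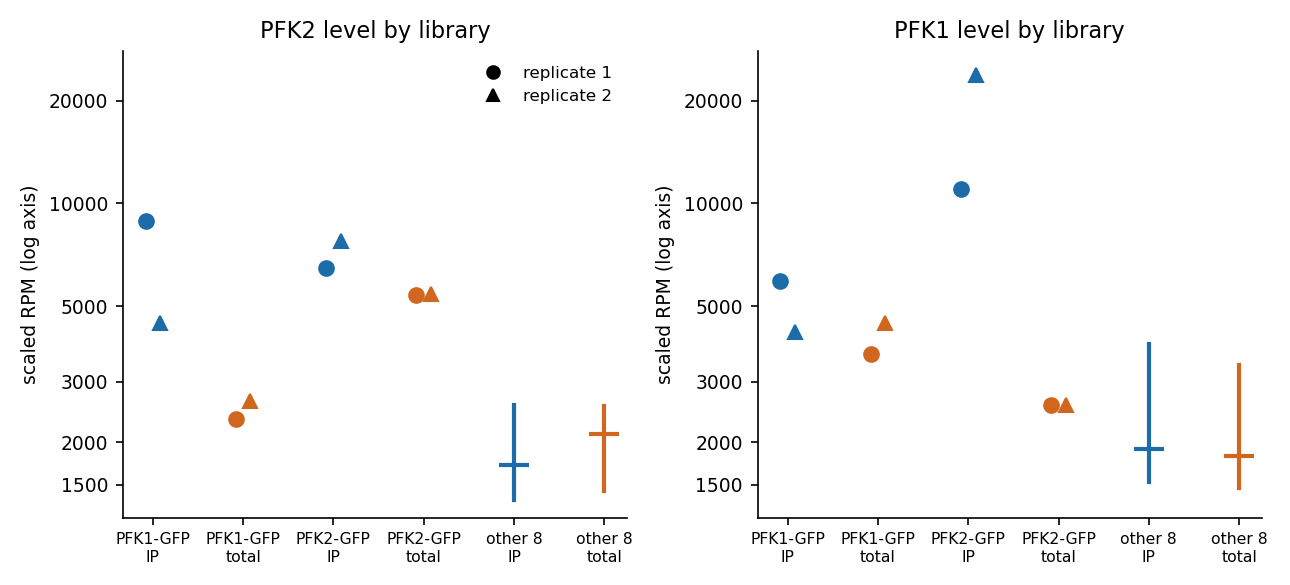
Levels of PFK2 (left) and PFK1 (right) in scaled RPM on a log axis, by strain and fraction, with IPs in blue and totals in orange. Circles and triangles are replicates 1 and 2, and lines on the right run from the lowest to the highest of 16 libraries of the other 8 replicated strains, with a bar at the median. Both PFK1-GFP IPs lie above both PFK1-GFP totals for PFK2, and for PFK1 the fractions overlap.

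The footprints of each tagged gene in the totals were set beside those in the totals of other strains. The PFK1-GFP totals held the top ranks for PFK1 among 20 totals, at 3616 and 4458 scaled RPM, against 1463 to 3368 (median 1824) in 16 totals of the 8 replicated strains with no phosphofructokinase tag. The mean of the PFK1-GFP totals was 2.21 times that median. The PFK2-GFP totals likewise held the top ranks for PFK2, at 5391 and 5433, against 1433 to 2556 (median 2112) in the same 16 totals. In the PFK1-GFP totals PFK2 lay at 2342 and 2641, within or just above that range. The ratio of PFK2 to PFK1 per kilobase in totals was thus 0.666 and 0.610 in PFK1-GFP, 2.16 and 2.17 in PFK2-GFP, and 0.78 to 1.51 (median 1.05) in the other strains, so the gene with the tag had the higher footprint level in both strains. These levels were looked at after the values were seen and carry no test.

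Whether the partner's enrichment depended on which subunit was tagged was tested as a difference between PFK1-GFP and PFK2-GFP. PFK1 was the feature called there, 1 of 5135 (0.0195%). Its log2 difference between IP and total was 0.31 in PFK1-GFP and 2.65 in PFK2-GFP, where it stood at 11002 and 23777 scaled RPM in the IPs and 2572 and 2575 in the totals. The difference between the strains was -2.34 ± 0.41 (SE, 4 libraries against 4; 95% interval -3.19 to -1.49; limma adjusted p = 0.0309). All 4 fraction means enter this value, and it was lost as a call without PFK1-GFP total 1 (adjusted p = 0.13), total 2 (0.328) or IP 2 (0.0644), and without PFK2-GFP total 1 (0.34) or total 2 (0.436), by limma in each case, and under 4 other settings. The count of calls was 42 without PFK2-GFP IP 2 and 6 without PFK1-GFP IP 2. PFK2 went the other way, with log2 differences of 1.34 in PFK1-GFP and 0.39 in PFK2-GFP. PFK2 stood at 6464 and 7746 scaled RPM in the IPs of PFK2-GFP and at 5391 and 5433 in its totals. The difference between the strains for PFK2 was 0.95 ± 0.36 (SE; 95% interval 0.21 to 1.69), and it was not called (limma adjusted p = 1.00). Each tag therefore gave the larger IP-to-total value for the other subunit, 1.34 for PFK2 under PFK1-GFP and 2.65 for PFK1 under PFK2-GFP, and that contrast was past the threshold for PFK1. For PFK2 the IPs of the strains overlapped, at 8872 and 4469 scaled RPM in PFK1-GFP and 6464 and 7746 in PFK2-GFP. Its totals did not, at 2342 and 2641 against 5391 and 5433, so its difference between the strains lay in the totals. For PFK1 the IPs did not overlap, at 5937 and 4188 in PFK1-GFP against 11002 and 23777 in PFK2-GFP. Its totals were 3616 and 4458 against 2572 and 2575.

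Against the strains tagged in other complexes PFK2 passed the test. In PFK1-GFP its log2 difference was 1.34, and its mean over FAS1-GFP, FAS2-GFP, GUS1-GFP, MES1-GFP, ARC1-GFP and TRP2-GFP was -0.26. The excess was 1.60 ± 0.27 (SE, 95% interval 1.04 to 2.17; limma adjusted p = 0.0209). PFK2 was 1 of the 2 features called of 5135 (0.0389%), and the other was the lower SLI15. The count was 239 without PFK1-GFP IP 2, 15 without PFK1-GFP total 2, and 0 without either library of PFK1-GFP replicate 1. The call on PFK2 was lost without PFK1-GFP total 1, the library with the MATalpha reads, where the excess was 1.52 (limma adjusted p = 0.422), and without PFK1-GFP IP 1, where it was 1.11 (limma adjusted p = 0.62). It was also lost with a weight for each library (limma adjusted p = 0.181). In a fit of the 6 replicated strains whose libraries all held more MATa than MATalpha reads, 3 of them tagged in another complex, the excess was 1.59 (limma adjusted p = 0.111), and the 2 features called were ARC1 (-2.91) and GUS1 (-2.84), subunits of the complex tagged in those 3 strains.

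The same value was compared over pairs of libraries. PFK2 had IP-minus-total log2 differences of 1.92 and 0.76 in the PFK1-GFP pairs, against -0.52 to 0.38 with a mean of -0.19 ± 0.25 (SD) in 17 pairs of 11 strains tagged in other complexes. Both PFK1-GFP pairs lay above all 17. The difference of means was 1.53, and an exact two-sided permutation test over the 171 ways to pick 2 pairs gave p = 0.00585, the smallest it can give. That test takes the pairs as exchangeable, although both PFK1-GFP pairs come from 1 strain and pairs of 1 strain can lie close together, as in ARC1-GFP (-0.41 and -0.46). With the pairs of each strain averaged, PFK1-GFP stood at 1.34 and the 11 other strains at -0.45 to 0.38, a difference of 1.49, and an exact permutation over the 12 strains gave p = 0.0833, the smallest it can give. Over the 13 pairs grown in YPD alone the difference was 1.55 (exact permutation p = 0.00952, the smallest it can give), and over the 11 pairs with more MATa than MATalpha reads it was 1.48 (exact permutation p = 0.0128, likewise the smallest). PFK2-GFP pairs, which have the tag on PFK2 itself, gave 0.26 and 0.51 and were not part of this test.

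**Figure D2:**
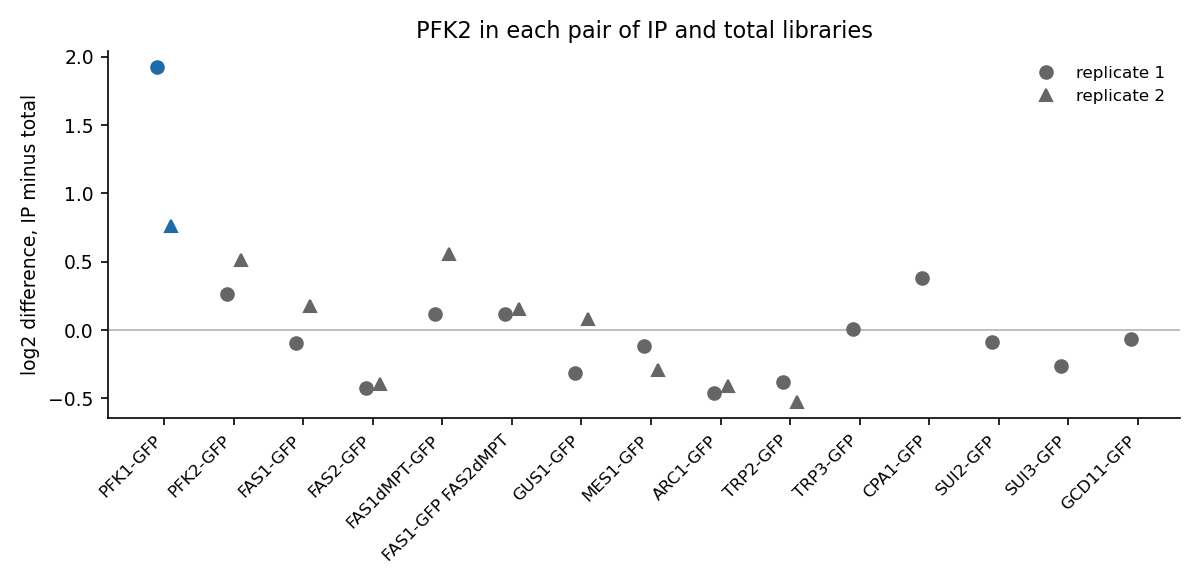
The log2 difference of PFK2, IP minus total, for each pair of libraries in 15 strains, with PFK1-GFP in blue at the left. Circles and triangles are replicates 1 and 2. The PFK1-GFP pairs, at 1.92 and 0.76, lie above every pair of the other strains, of which FAS1dMPT-GFP 2 (0.56) and PFK2-GFP 2 (0.51) come closest.

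Among abundant mRNAs PFK2 stood first in both pairs. Of the 213 features with a mean of at least 1000 scaled RPM in the PFK1-GFP totals, it had the highest difference in pair 1, where ADE6 came next at 1.59, and in pair 2, where ACC1 came next at 0.37. ADE6, an enzyme of purine synthesis, had 4691 and 1887 scaled RPM in the IPs, against 1557 and 1486 in the totals. ACC1, the acetyl-CoA carboxylase that starts fatty acid synthesis, had 4698 and 2799 in the IPs, against 2267 and 2161 in the totals. Both had IPs above totals, and both were also higher in the PFK2-GFP IPs, by 1.36 and 0.82 on the log2 scale, where PFK2 itself had 0.39. VMA2, a V-ATPase subunit, and ILS1 and CDC60, the isoleucyl- and leucyl-tRNA synthetases, had means of 0.75, 0.72 and 0.67 beside 0.97 for ADE6 and 0.71 for ACC1. VMA2, ILS1 and CDC60 had 0.98, 1.14 and 0.78 in PFK2-GFP, and -0.19, -0.07 and -0.19 in the mean of the strains tagged in other complexes. Over all 5135 features, most of them below that level, PFK2 ranked 68 in pair 1, 259 in pair 2 and 71 by the mean. The abundant features were added after their values were seen.

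Across all features the 2 pairs went the same way for 35.9% that were higher in both IPs than in their totals and 35.2% that were lower in both, and limma called 0 of 5135 (0%). Without IP 2, the library closest to its total, limma called 903 (368 higher and 535 lower), and without total 2 it called 6 (4 higher and 2 lower). At an unadjusted p below 0.05 limma had 478 features higher (9.31%) and 380 lower (7.4%). A log2 difference of at least 1 was far more common in pair 1, with 663 features higher and 786 lower, than in pair 2, with 117 higher and 2 lower. In both pairs at once 47 features were higher by at least 1 (0.915%) and 1 was lower (0.0195%), DMO1. PFK2 is not among the 47 because pair 2 gave 0.76. The pair differences correlated with r = 0.46 across features.

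**Figure D3:**
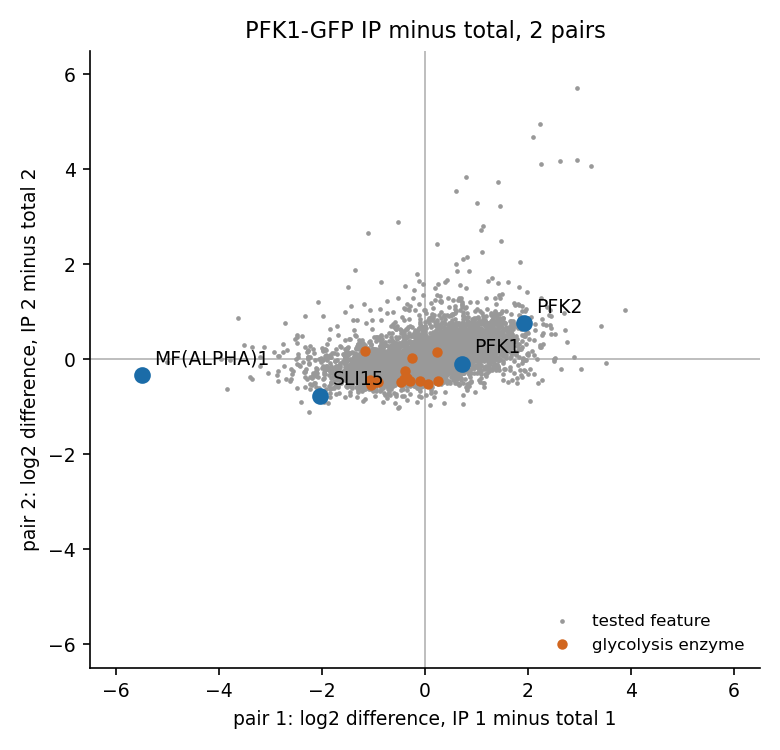
Log2 difference between IP and total in pair 1 (horizontal) and pair 2 (vertical) for 5135 tested features (grey dots), with glycolysis enzymes in orange and PFK2, PFK1, SLI15 and MF(ALPHA)1 in blue. Pair 1 spreads more widely than pair 2, PFK2 lies at 1.92 and 0.76, and MF(ALPHA)1 lies at -5.50 in pair 1.

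Of the 17 listed enzymes and isozymes of glycolysis none was called, PFK1 and PFK2 included. In both pairs 2 were higher, PFK2 and the minor pyruvate kinase PYK2, and 10 were lower, where 35.9% and 35.2% of all features were. The median log2 difference of the 17 was -0.37, against 0.01 over all features tested, -0.47 for the same 17 in PFK2-GFP and -0.63 in the mean of the strains tagged in other complexes. It was -0.14 without total 2, -0.21 without IP 1, -0.52 without IP 2 and -0.53 without total 1. Upstream of phosphofructokinase, PGI1, which makes fructose 6-phosphate, had 3550 and 4037 scaled RPM in the IPs, against 4700.5 and 5349 in the totals, and -0.41 in both pairs. HXK2, the main hexokinase in glucose, had -0.36 and -0.39. HXK1, its isozyme, split the pairs at -1.16 and 0.17.

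Downstream, FBA1, the aldolase that splits fructose 1,6-bisphosphate, had 11762 and 15239 scaled RPM in the IPs, against 16316 and 21271 in the totals, with -0.47 and -0.48 in the pairs. TPI1, the triose phosphate isomerase, had -0.39 and -0.25. The glyceraldehyde 3-phosphate dehydrogenases TDH1, TDH2 and TDH3 had mean differences of -0.23, -0.10 and -0.28. PGK1, the phosphoglycerate kinase, had -0.96 and -0.48, and GPM1, the phosphoglycerate mutase, -0.92 and -0.48. The enolases ENO1 and ENO2 were lowest of the list, at -0.79 ± 0.45 and -0.76 ± 0.43 (SE, 2 libraries against 2; limma adjusted p = 0.36 for both), and in the strains tagged in other complexes both had -0.72. CDC19, the main pyruvate kinase, had -0.29 and -0.46. The 3 TDH genes and the 2 enolases are near-identical copies, so how reads were split between them is uncertain. When the libraries were scaled to equal totals over nuclear features in place of the trimmed mean, the median of the 17 was -0.20 and that of all features 0.18.

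**Figure D4:**
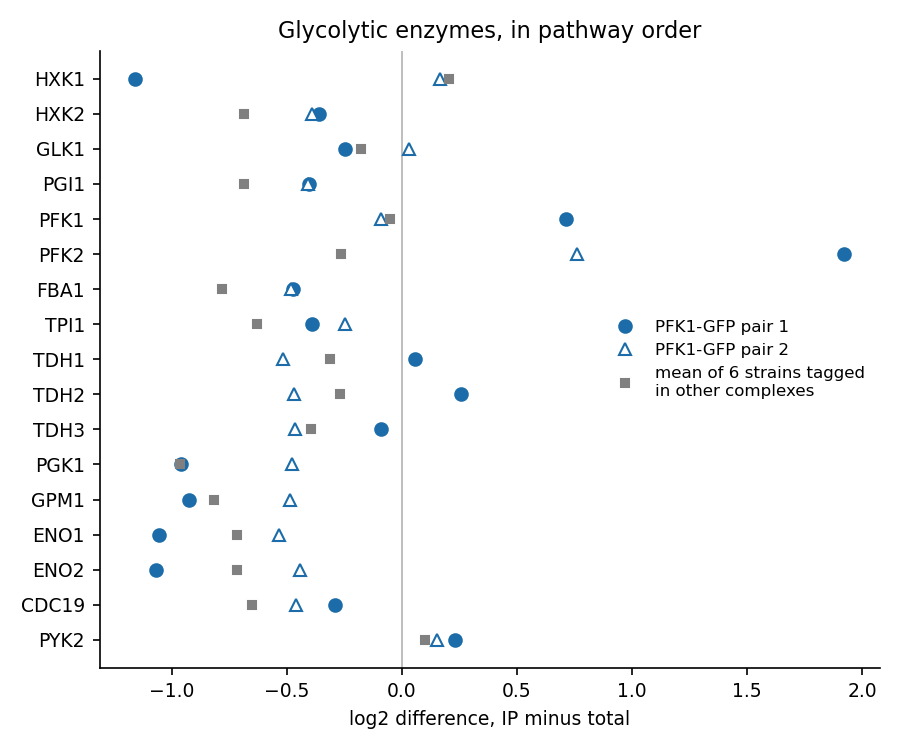
Log2 difference between IP and total for 17 glycolytic enzymes and isozymes in pathway order, in PFK1-GFP pair 1 (filled circles) and pair 2 (open triangles), with the mean of the 6 strains tagged in other complexes (grey squares). PFK2 is the enzyme whose pairs, at 1.92 and 0.76, both lie far above that mean, at -0.26.

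Neighbouring routes of sugar metabolism held no called feature either. In fermentation, 1 of 12 was higher in both pairs and 7 were lower, with a median of -0.43, which was -0.15 without total 2. The main alcohol dehydrogenase ADH1 had 10713 and 14238 scaled RPM in the IPs, against 16009 and 19954 in the totals, and ADH5 had a mean difference of -0.82. ADH4, the zinc-regulated isozyme, had 0.92 and GPP2, a glycerol phosphatase, 0.21. In the pentose phosphate pathway 0 of 11 were higher in both pairs and 5 were lower (median -0.15; 0.12 without total 2, -0.03 without IP 1, -0.29 without total 1 and -0.39 without IP 2), from the minor isozymes GND2 (0.91) and TKL2 (0.85) to the transaldolase TAL1 (-0.39) and the main 6-phosphogluconate dehydrogenase GND1 (-0.41). Hexose transport had 1 of 11 tested higher in both pairs and 1 lower (median -0.07, 0.10 with equal totals, and between -0.24 without total 2 and -0.01 without total 1), from the glucose sensors SNF3 (0.85) and RGT2 (0.34) to the transporter HXT3 (-0.23) and the regulator MTH1 (-0.62). GAL2, the galactose transporter, did not pass the filter on low values.

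A list of genes for fructose bisphosphate control and activators of glycolytic genes held 8, of which FBP1, the opposing phosphatase, did not pass the filter. Of the 7 tested, 2 were higher in both pairs and 3 lower, with a median of -0.28 that turned to 0.16 without total 1 and was -0.11 without IP 2. PFK26, a kinase that makes fructose 2,6-bisphosphate, had 30.6 and 23.9 scaled RPM in the IPs, against 13.1 and 21.8 in the totals, with a difference of 0.65 ± 0.27 (SE, 2 libraries against 2; limma adjusted p = 0.25). The glycolytic gene activators split: GCR1 had 0.69, and RAP1 and TYE7 had -0.90 and -0.95. Gluconeogenesis and the glyoxylate cycle had 6 of 10 genes tested, 3 higher in both pairs and 0 lower, and a median of 0.63, against 0.94 in PFK2-GFP and 0.43 in the strains tagged in other complexes. It was 0.18 without IP 1 and 0.99 without IP 2. Both pyruvate carboxylases were among the 3. PYC2 had 1268 and 689 scaled RPM in the IPs, against 513 and 536 in the totals, and PYC1 had 1182 and 536, against 473 and 439. These are near-identical long genes, with differences of 0.83 and 0.80, and 1.28 and 1.23 in PFK2-GFP.

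Trehalose and glycogen genes had 11 of 17 higher in both pairs and 1 lower, with a median of 0.29, against 0.42 in PFK2-GFP and 0.32 in the strains tagged in other complexes, and it was 0.51 without total 2. GLC3, the glycogen branching enzyme, had 15.1 and 18.1 scaled RPM in the IPs, against 6.9 and 8.1 in the totals, a difference of 1.04 ± 0.52 (SE; limma adjusted p = 0.31). NTH2, a trehalase, had 0.91, and the phosphoglucomutase PGM1 had -0.39. Phosphofructokinase has been tied to the vacuolar ATPase, a proton pump whose reassembly on glucose needs the RAVE complex. Of 18 V-ATPase and RAVE genes 5 were higher in both pairs and 11 lower, with a median of -0.29 and none called. The median was -0.02 without IP 1 and -0.12 without total 2. The RAVE subunit RAV1 had 152 and 84.7 scaled RPM in the IPs, against 61.0 and 47.6 in the totals, with 1.06 ± 0.39 (SE; limma adjusted p = 0.20) and 1.83 in PFK2-GFP. STV1, the Golgi form of the membrane subunit, had 0.79, and the small subunit VMA7 and the RAVE member SKP1 had -0.74 and -0.78.

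The subunits tagged in the other strains and their partners, 12 genes, had a median of 0.03 (-0.21 with no further scaling, and between -0.03 without IP 1 and 0.08 without IP 2), with 3 higher in both pairs and 6 lower. FAS2, the alpha subunit of fatty acid synthase, had 0.52, and SUI3 and ARC1 had -0.47 and -0.55. None was called. Of 32 cytosolic chaperones 5 were higher in both pairs and 17 lower (median -0.11, 0.06 with equal totals, 0.04 without IP 1, 0.02 without total 2, -0.34 without IP 2 and -0.35 without total 1), from the chaperonin subunit CCT8 (0.69) and the Hsp70 SSA3 (0.64) to the Hsp40 SIS1 (-1.04) and BTT1 of the nascent polypeptide-associated complex (-1.16). Proteasome genes had 4 of 32 higher and 20 lower (median -0.20), with RPN1 at 0.58 and RPN6 at -0.71. Their median was 0.01 without IP 1, -0.03 without total 2, -0.40 without total 1 and -0.44 without IP 2. Stress-induced genes had 5 of 13 tested higher and 2 lower (median 0.23), with HSP42 at 0.91 and DDR2 at -1.30. That median turned to -0.27 without IP 2, and was 0.07 without total 1, 0.46 without IP 1 and 0.57 without total 2.

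Genes for cytosolic ribosomal proteins lay on the low side in nearly every case. Of 137 cytosolic ribosomal protein genes, 0 were higher and 135 lower in both pairs, with a median of -0.73, and none was called. The medians were -1.08 in pair 1 and -0.36 in pair 2, -0.97 in PFK2-GFP and -0.66 in the strains tagged in other complexes. They took 9.75% and 18.4% of nuclear reads in the IPs, against 18.3% and 20.5% in the totals. Without IP 1 the median was -0.18, and without IP 2 it was -1.29. RPS6A and RPS0B were least low, at -0.44 and -0.48, and RPL39 and RPL32 lowest, at -0.94 and -0.91; many of these genes have a near-identical copy. Mitochondrial ribosomal proteins had 7 of 67 higher and 35 lower (median -0.41), and the nuclear genes of the respiratory chain and ATP synthase 5 of 30 higher and 21 lower (median -0.49). Citric acid cycle genes had 3 of 15 higher and 7 lower (median -0.17), with KGD1 of the 2-oxoglutarate dehydrogenase at 0.51 and SDH3 of succinate dehydrogenase at -0.81. Without IP 1 the medians of the mitochondrial ribosomal proteins and the respiratory genes were 0.16 and 0.23, and that of the citric acid cycle 0.04, and without IP 2 they were -1.003, -1.20 and -0.37.

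Length moved with the difference over all features. The median length was 803 nucleotides for the cytosolic ribosomal proteins as the files delimit them, 699 for the mitochondrial ones and 429 for the respiratory genes, against 1275 over all features tested. Other lists with a median below 0 lay on both sides of 1275 nucleotides. Longer ones included glycolysis, with a median length of 1314 nucleotides, the list with the fructose bisphosphate genes (1605) and the chaperones (1629). Shorter ones included the proteasome (865.5), the V-ATPase and RAVE genes (904.5), the pentose phosphate pathway (1008) and fermentation (1162.5). Features under 300 nucleotides had median differences of -0.91 in pair 1 and -0.20 in pair 2. Those of 2400 nucleotides or more, which include PFK1 and PFK2, had 0.54 and 0.30. PFK2 stood above the median of its length class by far in pair 1 and to a lesser extent in pair 2, and PFK1 lay near it in pair 1 and below it in pair 2. The same gradient was present in PFK2-GFP (-0.78 to 0.74) and in the mean of the strains tagged in other complexes (-0.59 to 0.45). Spearman's rho between length and difference across features was 0.45 in both PFK1-GFP pairs, 0.55 in PFK2-GFP and 0.58 in the other strains. The part of length in the list medians was not tested.

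**Figure D5:**
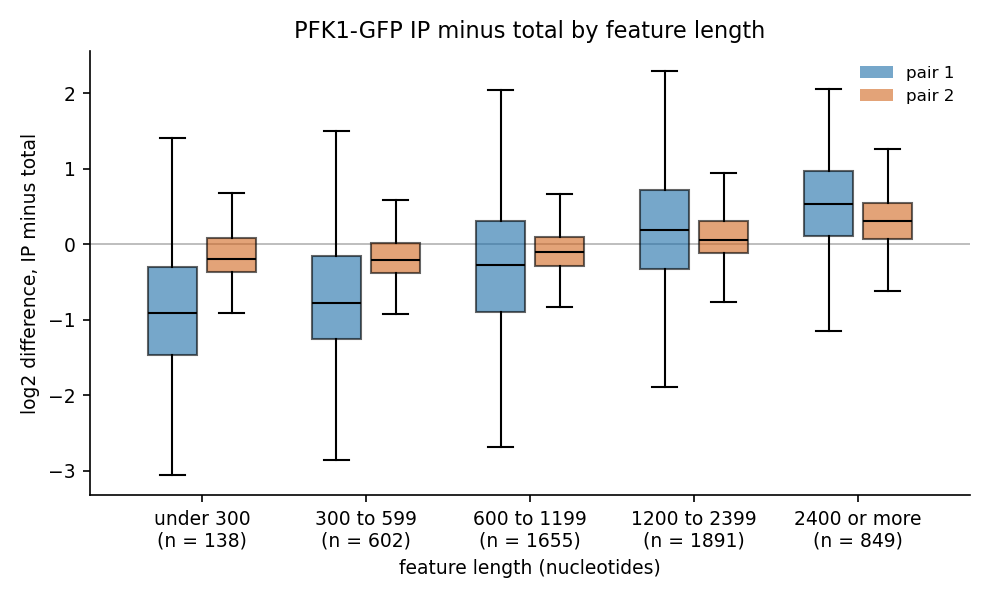
Log2 difference between IP and total in PFK1-GFP by feature length in nucleotides, pair 1 in blue and pair 2 in orange. Boxes run from the first to the third quartile with the median as a line, whiskers reach the last value within 1.5 box lengths, and values beyond are not drawn. Medians lie between -0.91 in the shortest class and 0.54 in the longest in pair 1, and between -0.20 in both classes under 600 nucleotides and 0.30 in the longest in pair 2.

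The features with the largest differences in both pairs were low in level. The 12 highest outside non-coding RNA genes reached at most 164 scaled RPM, and 6 of them stood at 0 in at least 1 library. BPH1, a BEACH-domain protein and the longest at 6504 nucleotides, had 164 and 81.7 scaled RPM in the IPs, against 61.2 and 26.1 in the totals, a difference of 1.51 ± 0.61 (SE, 2 libraries against 2; limma adjusted p = 0.24). The fractions of BPH1 did not overlap, as in PFK2. SKM1, a kinase of the PAK family, had 35.2 and 14.2 in the IPs, against 9.3 and 4.3 in the totals, again without overlap. REV3, the catalytic subunit of DNA polymerase zeta, had 27.7 and 7.5, against 9.2 and 2.3, and its fractions overlapped. NDJ1, a meiotic telomere protein, had 18.4 and 2.1, against 5.4 and 0, with overlap. DCS2, a stress-induced regulator of mRNA decapping, had 3.8 and 3.3, against 0 and 0.8. The others were YOL029C, YBL107W-A, YCL021W-A, YER186C, ECM18, YCR024C-B and the putative lipase LIH1. All 12 were higher in the mean of the strains tagged in other complexes too, 11 of them by at least 1 on the log2 scale, and none was called against that mean.

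Of the 28 features tested that lie over a tRNA, snoRNA or other non-coding RNA gene, 17 were higher in both pairs and 6 lower. Over all features tested 35.9% were higher and 35.2% lower in both. The median of the 28 was 0.79 (-0.76 to 4.33), against 1.36 in PFK2-GFP and 0.69 in the strains tagged in other complexes. The 3 highest follow. YOR072W-B, over the tRNA gene SUF11, had 544 and 960 scaled RPM in the IPs, against 57.2 and 56.1 in the totals. YNL042W-B, over YNCN0009W, had 542 and 968, against 69.3 and 51.6. YJL047C-A, over the snoRNA gene SNR60, had 381 and 64.9, against 48.6 and 0.3. All 3 were above 2 on the log2 scale in the mean of the PFK2-GFP pairs. In PFK2-GFP pair 1, however, YOR072W-B had 18.6 scaled RPM in the IP against 15.9 in the total, and YNL042W-B 17.4 against 15.1. In PFK2-GFP pair 2 they had 4023 against 182.5 and 3968 against 187. YJL047C-A had 424 and 107 in the PFK2-GFP IPs, against 0.7 and 0.3 in the totals. All 3 were above 4 in the mean of the strains tagged in other complexes. Reads from the RNA gene and the reading frame cannot be told apart.

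On the low side SLI15, the yeast INCENP, a subunit of the chromosomal passenger complex, was the feature called against the strains tagged in other complexes. It had 3.77 and 9.37 scaled RPM in the IPs, against 18.5 and 16.7 in the totals, so the fractions did not overlap, as for 17.6% of features with both IPs below both totals. Its log2 difference was -1.40 ± 0.30 in PFK1-GFP (SE, 2 libraries against 2; limma adjusted p = 0.118), -0.47 in PFK2-GFP and 0.32 in the mean of the strains tagged in other complexes. The deficit against that mean was -1.73 ± 0.32 (SE; limma adjusted p = 0.0315). It was not called by limma without PFK1-GFP total 1 (adjusted p = 0.48) or IP 1 (0.62), without further scaling (0.599), with a weight for each library (0.998) or in the strains with MATa reads alone (0.272). With 1 library of the other 6 strains left out, the call was lost in 17 of 24 fits (limma adjusted p between 0.0285 and 0.0758 over the 24).

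The 12 lowest features in both pairs were short or rare, at most 74.4 scaled RPM. DMO1 had 1.3 and 2.5 scaled RPM in the IPs, against 9.7 and 6.6 in the totals. YOR302W, the 78-nucleotide upstream reading frame that encodes the arginine attenuator peptide of CPA1, had 5.9 and 4.7, against 24.4 and 9.7. The membrane protein gene SNA2 had 10.8 and 13.9, against 44.8 and 26.8. These 3 had IPs below totals without overlap, with mean differences between -1.68 and -1.40. TIS11, an mRNA-binding protein of the iron response, had 31.8 and 3.5, against 74.4 and 7.4, and its fractions overlapped. AFB1, an alpha-specific barrier protein for a-factor, had 5.7 and 8.1, against 23.1 and 14.7 in the totals, highest in total 1, the library with the alpha-factor reads. ICY1, the tubulin cofactor ALF1, the inositol phosphate synthase INO1, EEB1, YTP1, SLI15 and the secretion factor MSO1 were the rest. All 12 were lower in PFK2-GFP too, and 6 of 12 were lower in the mean of the strains tagged in other complexes, none of them by 1 on the log2 scale.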

How the data were processed

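Total and IP translatomes of PFK1-GFP yeast were analysed beside those of the other strains with values per gene. Per the submitters' processing notes, cutadapt 1.8.3 removed the adapters. Which aligner, counting rule, strand setting and build were used is not given in the sources used here. Deposited tables without a header hold RPM values, as the authors deposited them, taken as RPM because low values are multiples of 1 step and columns sum to less than the full library. The inverse of the step gave the implied reads. Of the values above 0 in the 4 PFK1-GFP libraries 45.6% to 72.9% were whole reads within 0.01 read, so counts were not recovered and no count test was used, where the plan allowed for counts. No interval for counting error is given.

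Each table lists 6605 features. Names come from the RefSeq table of assembly R64 (5919 matched, 5887 at the same coordinates), and coordinates are those deposited. Scaling and tests left out 28 mitochondrial features. Values were divided by the library's reads over nuclear features and by a trimmed mean of log ratios without weights (0.3 trimmed on ratios and 0.05 on means), taken as log2(value + 1), and kept at a mean of at least 5, which left 5135 features. All 40 libraries of the 10 replicated strains entered 1 linear model with 1 mean for each fraction of a strain, run in limma 3.58.1 (R 4.3.3) with a trend and Benjamini-Hochberg adjustment over all 5135, so each SE includes the spread of other strains. Levels come from this scaling. The pairs of PFK2 differences use the same scaling over all 50 libraries. The limma step alone was checked on simulated data, with independent noise of equal size in every library. That check does not cover the unequal spread of these libraries.

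Replicate numbers come from the titles. Same-numbered IPs and totals deviated together with correlations between 0.0014 (ARC1-GFP) and 0.83 (GUS1-GFP), and 0.56 in PFK1-GFP. ARC1-GFP was the only strain not above 0.1, and because of it no block was used in the main fit. Fits with the block, which call more features in the PFK1-GFP libraries alone, are given with the alternatives. Replicate number also goes with the deposited tables' layout in PFK1-GFP: replicate 1 files give the higher coordinate of minus-strand genes first, and replicate 2 files the lower, as do 29 and 21 of all 50 libraries. Values within pair 1 and pair 2 are thus also values within a layout.

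Members and gene lists were chosen with earlier results of these data known. The ribosomal protein list was corrected afterwards by taking out RPP1, a subunit of RNase P that a name pattern had caught. Named features are PFK1 and PFK2, the 12 highest and 12 lowest by the smaller of both pair differences, the 3 highest over non-coding RNA genes, the called ones, and, as examples, up to 2 highest and 2 lowest of each list. Abundant features and all members of glycolysis were added after their values were seen. Alternatives covered scaling, pseudocount, filter, library weights, the block, fewer libraries and each library left out.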

Additional observations from a re-analysis of the deposited data

Results flagged for a closer look

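PFK1 differed between PFK1-GFP and PFK2-GFP in its IP-to-total difference, by -2.34 on the log2 scale (limma adjusted p = 0.0309). It is the tagged gene in PFK1-GFP, where the pairs gave 0.72 and -0.09, and the partner in PFK2-GFP, where they gave 2.10 and 3.21, so both PFK1-GFP pairs lay below both PFK2-GFP pairs. PFK2 differed between PFK1-GFP and the mean of the strains tagged in other complexes by 1.60 (limma adjusted p = 0.0209), and SLI15 by -1.73 (limma adjusted p = 0.0315).

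The mitochondrial genome's own features, which entered no test, summed to 5880 RPM in IP 1 and 1809 RPM in IP 2, against 2801 in total 1 and 231 in total 2. COX1, a cytochrome oxidase subunit, gave 1761 and 357 RPM in the IPs, against 668 and 37.3 in the totals. Its intron-encoded reading frames AI1 to AI5_ALPHA overlap it and share reads. COB, cytochrome b, gave 191 and 67.5 RPM in the IPs, against 73.8 and 10.7 in the totals. The IP stood above the total in 14 of 25 pairs over all strains, 9 other pairs had both libraries at 0, and 19 libraries list all of these features at 0.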

How the results depend on the processing

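PFK2 kept its direction in every alternative run. Its IP-to-total difference was also called with equal totals (1.51), with a mean of at least 50 RPM (1.34) and with the 4 PFK1-GFP libraries alone and the replicate block (1.34), and ranged between 0.85 and 1.83 with a PFK1-GFP library left out. The count of calls was 1 under the first and second of these and 133 under the third (96 higher and 37 lower), and between 0 and 903 with a library left out (6 without total 2). With the replicate block in all strains 0 were called in PFK1-GFP IP against total and PFK2 had limma adjusted p = 0.0661. PFK2 was also not called in that comparison in the 4 PFK1-GFP libraries alone without the block (limma adjusted p = 0.772). Nor was it called with library weights (limma adjusted p = 0.678) or with no further scaling (limma adjusted p = 0.494). Against PFK2-GFP, PFK2 ranged between 0.46 and 1.45 with a library left out. The call on PFK1 there (0.048 by limma with the replicate block) was lost with no further scaling (-2.62), no filter (-2.34), the 8 libraries of both strains alone (-2.34) and the strains with MATa reads alone (-2.34), with 0 calls in each, and with 1 library left out its value lay between -2.90 and -1.78 and the count between 0 and 42. Against other complexes the count was 1 with no further scaling, 4 with equal totals, 1 at 50 RPM, 15 with the replicate block (4 higher and 11 lower), 0 with library weights, where PFK2 was at 1.60 and lost its call (limma adjusted p = 0.181), and between 0 and 239 with 1 library left out, with PFK2 between 1.11 and 2.10. In the strains with MATa reads PFK2 was at 1.59. These strains and the pairs left out were chosen after seeing the data. Over pairs, the PFK2 difference was 0.95 without pair 1 and 2.11 without pair 2, and the exact permutation p was then 0.0556, the smallest it can give. Over the means of 12 strains, also chosen after seeing the data, it was 1.49 (exact permutation p = 0.0833, likewise the smallest). The median of all features was -0.21 with no further scaling and 0.18 with equal totals, against 0.01 in the main fit. The causes were not tested. Depth limits low features most: total 1 holds 1.75 M implied reads. PFK2-GFP IP 1, which enters every PFK2-GFP value, holds 0.544 M, the fewest of the 50 libraries.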
